A study of Mus musculus with 12 samples.

Results

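Imiquimod (IMQ) skin was compared with wild-type control skin of the mouse over all genes of the count table, with the emphasis on genes and pathways beyond the classic psoriasis lists. The comparison takes 8 of the 12 libraries of the series: 3 labelled wild-type (control replicates 1 to 3) and 5 labelled IMQ-induced (IMQ replicates 1 to 5). The titles of the IMQ libraries give no genotype, and the series text calls these animals wild-type. The other 4 libraries come from IMQ-induced mice without Tcn2. They entered the filter on low counts, the scaling of the libraries and the shared estimate of the spread. In fits with a covariate they also entered its slope. The labels give no dose, duration, sex, age or strain, and do not say whether the controls received a vehicle. They also do not say whether each library is a separate animal, so p-values measure the spread between these libraries, which may be technical. The sample titles carry the word muscle while the tissue label is skin. All 33539 genes of the table belong to the comparison, and 18147 passed the filter on low counts and were tested.

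Imiquimod is a small agonist of Toll-like receptors that, painted on mouse skin, gives a scaling inflammation used as a model of psoriasis. The epidermis renews itself by moving keratinocytes outward through a programme that ends in cornification, in which proteases, their inhibitors, crosslinking enzymes and lipid enzymes turn living cells into a barrier. In mice the epidermis also houses a resident set of gamma-delta T cells, and hair follicles carry sebaceous glands that secrete lipid.

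Values below are CPM, counts scaled to library size with TMM factors, in the order of the replicate numbers. A change is the log2 ratio of IMQ to control, and the call threshold was an adjusted p of 0.05 in edgeR's quasi-likelihood test. "Rose" and "fell" are used only of called genes.

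The groups differed in more than inflammation. The summed level of 29 skeletal muscle markers was 17162, 17472 and 17760.1 CPM in the controls and 4262, 5234, 9279, 9307 and 10323 CPM in IMQ skin, so every control lay above every IMQ library, and none of the markers was at 0 in all 8 libraries. Sebaceous gland markers, 18 genes, summed to 9171, 11962 and 10756 CPM in the controls and 2974, 6052, 3251, 3461 and 2659.9 CPM in IMQ skin, again without overlap. Secretory gland markers, 33 genes, summed to 221, 169 and 267 CPM in the controls and 116, 207, 144, 128 and 175 CPM in IMQ skin, which overlapped. Of the 16 of them tested, 3 fell (Klk1b21, Klk1b24 and Klk1b27, near-identical kallikrein copies that could share reads) and 1, Lpo, rose, against 0.535% and 0.694% of all genes. The median log2 change of the 16 was 0.27, with 10 above and 6 below 0, so most did not go the way of the sum. The other 17 had too few counts to be tested. Klk1, the tissue kallikrein of the same family and 1 of the 33 markers, was picked out after its values were seen. It was at 118, 75.7 and 159.5 CPM in the controls and 11.3, 3.7, 0.121, 0 and 0 CPM in IMQ skin and was not called (adjusted p = 0.0772), without overlap. The gland sum contains Klk1, which made up a large part of it in each control and a small part or none in each IMQ library. The lower sum in IMQ skin thus leans on this gene. Interfollicular keratinocyte markers, 14 genes, ran the other way, from 7799, 9469 and 8804 CPM in the controls to 24698, 22687, 30239, 28757 and 37442 CPM in IMQ skin. Hair shaft and inner root sheath markers were high in control replicate 1 and in IMQ replicates 2 and 5, at 1553, 31.2 and 19.8 CPM in the controls and 44.3, 18022, 69.7, 86.7 and 3817 CPM in IMQ skin.

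Control replicate 1 stood apart from the other controls. Its 13 fibroblast markers summed to 1721 CPM, against 14902 and 19502 CPM in control replicates 2 and 3, and its 13 macrophage and monocyte markers to 136 CPM, against 2674 and 4041 CPM. Its mitochondrially encoded share was 10.3% of counts, and the other 7 libraries lay between 2.78% and 5.53%. Reads of the Y-linked gene Ddx3y were present in control replicate 1 and IMQ replicates 2 to 5, and Xist, made from the inactive X chromosome, in control replicates 2 and 3 and IMQ replicate 1, so sex and treatment were partly aligned. In whole skin, fewer cells of a type and less RNA per cell cannot be told apart. Total counts of the 8 libraries ran from 16325012 to 17461680.

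**Figure D1:**
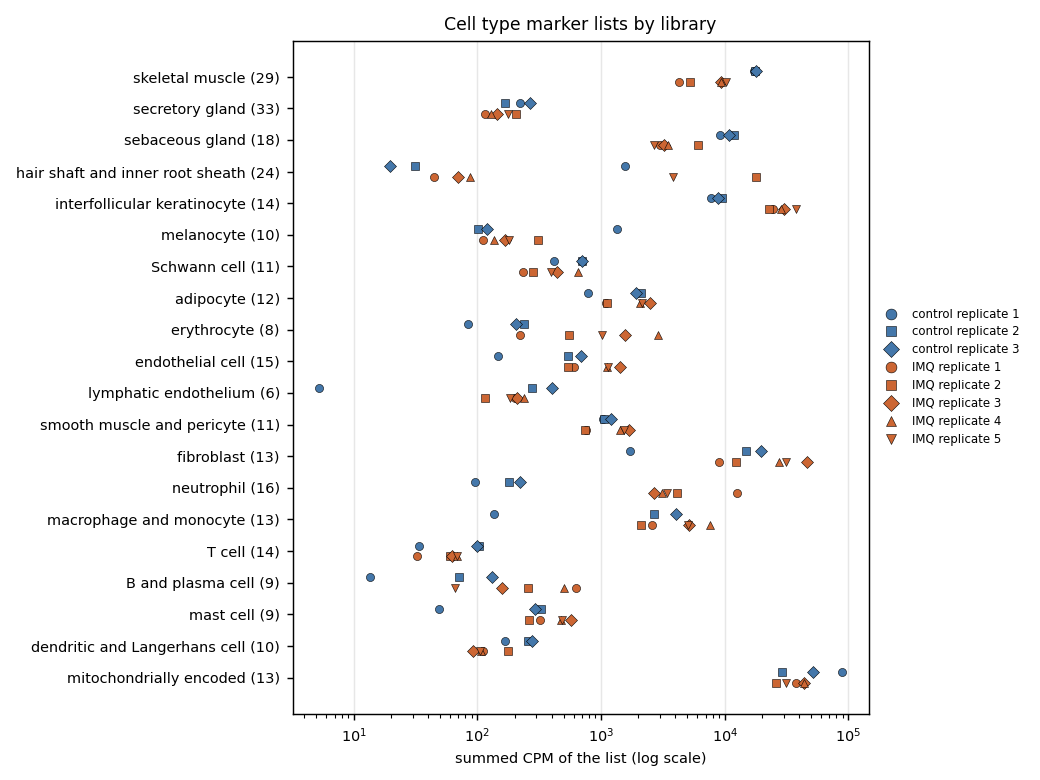
Summed CPM of marker lists for the cell types that a skin sample can hold (log axis), 1 point per library, for 3 control and 5 IMQ libraries. Skeletal muscle and sebaceous gland sums are higher in all controls than in any IMQ library, keratinocyte and neutrophil sums lie above the controls in all IMQ libraries, and the fibroblast and macrophage sums of control replicate 1 lie below those of the other libraries.

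Of the 18147 genes tested, 126 rose and 97 fell in IMQ skin, which is 1.23% of them (0.694% higher and 0.535% lower). By the symbol patterns used for the classic psoriasis genes (keratins, calprotectin, small proline-rich and late cornified envelope proteins, kallikreins, chemokines, the main interleukin families and the like), 48 of the higher and 9 of the lower genes were classic. The other 166 called genes, 78 higher and 88 lower, are the subject here. Counts of called genes in a list, given below, are to be read against these shares, and a single called gene describes that gene and not its list. Of the 166, 77 of the higher and 84 of the lower genes changed at least 2-fold, and in 78 and 87 of them the control and IMQ libraries did not overlap. Over all genes tested, 1232 (6.79%) were higher and 1343 (7.40%) lower in IMQ skin with no overlap.

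These counts rest on few libraries. Without control replicate 3, 4 genes were called higher and 4 lower, and without control replicate 2, 8 and 7. Leaving out IMQ replicate 5 gave 32 and 18, IMQ replicate 3 gave 37 and 19, IMQ replicate 4 gave 50 and 30 and IMQ replicate 1 gave 61 and 35. Without control replicate 1 there were 59 higher and 74 lower, and without IMQ replicate 2 there were 154 and 234. With the skeletal muscle score as a covariate 13 and 2 genes were called, with the secretory gland score 13 and 0, and with the sebaceous gland score 15 and 3. With sex as a covariate there were 96 and 47. In edgeR's test with the muscle and gland scores together, none was called either way, and 533 genes had an unadjusted p below 0.05. In each of these fits all 223 genes kept the sign of their change. They were called for that change, and nearly all of those outside the classic patterns did not overlap between the groups. Leaving out a library could thus hardly turn their sign, and the kept signs are no separate support. The muscle and sebaceous sums do not overlap between the groups, so their part in the changes cannot be told apart from the treatment.

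**Figure D2:**
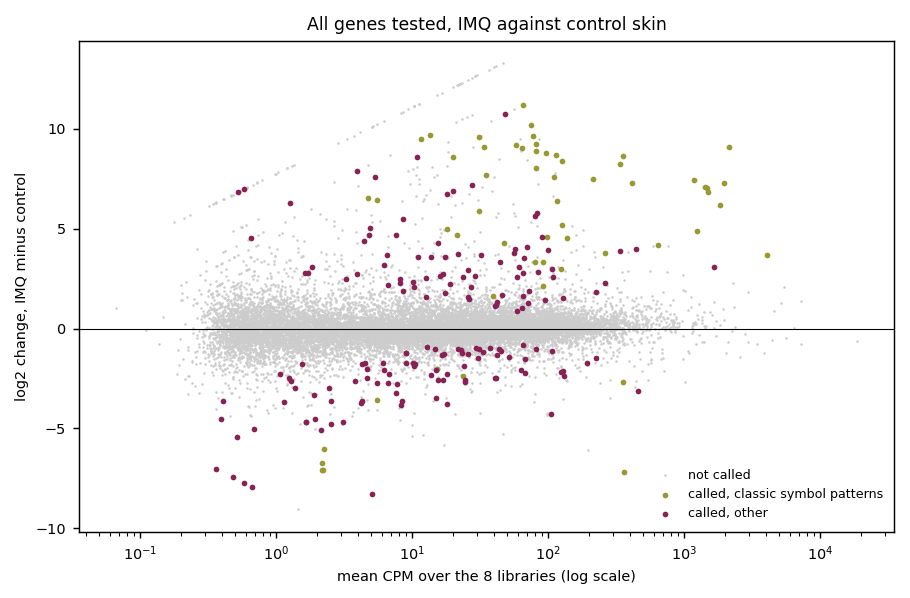
Log2 change of IMQ against control skin (vertical axis) against the mean CPM of the 8 libraries (horizontal log axis), 1 point per gene tested. Coloured points are the 223 called genes, split into classic psoriasis symbol patterns and all others, which lie on both sides of 0 and cover the whole range of levels.

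Among the genes that rose were a serine protease, a caspase, an envelope protein and 3 protease inhibitors, described here gene by gene. The keratinocyte marker sum given above was also higher in every IMQ library, and its part in these changes was not tested. Prss27 encodes marapsin, a serine protease of stratified epithelia, and was at 4.23, 6.01 and 4.49 CPM in the controls and 50.5, 43.3, 36.6, 24.3 and 35.8 CPM in IMQ skin. All IMQ libraries lay well above the highest control (log2 change 2.95, SE 0.33, adjusted p = 0.00568). Casp14, the caspase of cornifying keratinocytes that takes part in filaggrin processing, was at 51.2, 29.4 and 46 CPM in the controls and 640.5, 343, 778, 958 and 661 CPM in IMQ skin (log2 change 4.0, SE 0.52, adjusted p = 0.0065). Cnfn, cornifelin, a component of the cornified envelope, was at 11.1, 44.6 and 48.7 CPM in the controls and 784, 423, 511, 406 and 466 CPM in IMQ skin (log2 change 3.9, SE 0.58, adjusted p = 0.0125). In both genes the lowest IMQ library was far above the highest control, and IMQ replicate 1 was the highest for Cnfn. Psors1c2, a gene of the human psoriasis susceptibility region on the MHC chromosome, was at 9.46, 4.04 and 5.68 CPM in the controls and 50.2, 238, 75.8, 80.8 and 92.2 CPM in IMQ skin (log2 change 4.07, SE 0.75, adjusted p = 0.0303), highest in IMQ replicate 2, the library with the most hair follicle RNA. Gsdmc, a gasdermin, the family of pore-forming proteins, was at 4.29, 6.63 and 6.42 CPM in the controls and 67.5, 99.3, 145, 178 and 216 CPM in IMQ skin (log2 change 4.61, SE 0.79, adjusted p = 0.0223).

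Among the inhibitors, 2 Kazal-type genes were next to silent in the controls. Spink7 had 2 reads in all 3 controls together and 6322 in the IMQ libraries, with IMQ levels of 13.2, 5.29, 163, 81.7 and 118 CPM. Its ratio of counts per total counts was 1855 (exact 95% counting interval 513 to 15319; adjusted p = 0.0433). Spink12 likewise had 2 control counts and 1431 IMQ counts, at 7.4, 5.46, 30.4, 23.4 and 19.4 CPM in IMQ skin, a ratio of 419.8 (116 to 3470.1; adjusted p = 0.038). For both, IMQ replicates 1 and 2 were lowest and replicates 3 to 5 highest. Serpina9, a serpin, was likewise lowest in IMQ replicates 1 and 2, at 2.58, 0.562 and 0.568 CPM in the controls and 8.62, 18.2, 28.8, 27.7 and 37.7 CPM in IMQ skin (log2 change 4.28, SE 0.78, adjusted p = 0.0303). The call of Prss27 held whichever library was left out (adjusted p 0.00494 to 0.045). The calls of Casp14 and Cnfn were lost without control replicate 2 (adjusted p 0.0501 to 0.0722) or control replicate 3 (0.0581 to 0.0682). The call of Gsdmc was lost without any 1 library other than IMQ replicates 1, 2 and 4 (adjusted p 0.0541 to 0.128). The call of Serpina9 was lost without any 1 library other than control replicate 1 and IMQ replicates 1 and 2 (adjusted p 0.0521 to 0.156). The call of Psors1c2 was lost without any 1 library other than IMQ replicates 1 and 2 (adjusted p 0.0521 to 0.16). The calls of Spink7 and Spink12 were lost without any 1 library other than IMQ replicate 2 (adjusted p 0.0573 to 0.194).

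Uox, Ada and Upp1, enzymes that break down purines and pyrimidines, rose. Of the list for tryptophan and nucleotide catabolism, 3 of 25 tested members were called higher and none lower, against 0.694% and 0.535% of all genes. Uox encodes urate oxidase, which in mice turns urate into allantoin and is best known from liver, and its levels were 0.605, 0 and 0.284 CPM in the controls and 55.3, 37.2, 59.7, 21.2 and 46.2 CPM in IMQ skin (log2 change 7.17, SE 1.09, adjusted p = 0.0136). Control replicate 2 had no Uox read, and every IMQ library had at least 350. Ada, adenosine deaminase, was at 4.62, 2.02 and 2.95 CPM in the controls and 21.3, 14, 19.7, 15.4 and 21.2 CPM in IMQ skin (log2 change 2.52, SE 0.41, adjusted p = 0.0174). Upp1, uridine phosphorylase, was at 3.46, 3.15 and 4.71 CPM in the controls and 31.8, 34.2, 18.3, 10.3 and 22.5 CPM in IMQ skin (log2 change 2.63, SE 0.57, adjusted p = 0.0497). No control overlapped an IMQ library in any of these genes, and IMQ replicate 4 was lowest for Uox and Upp1. The call of Uox was lost without control replicate 2 (adjusted p 0.0616) or control replicate 3 (0.103). The call of Ada was lost without control replicate 2 (adjusted p 0.103), control replicate 3 (adjusted p 0.111) or IMQ replicate 5 (0.0505). The call of Upp1 was lost without any 1 of the 8 libraries (adjusted p 0.0521 to 0.209).

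Lipid mediator enzymes moved in both directions. The eicosanoid list had 2 members called higher and 1 lower of 42 tested, against 0.694% and 0.535% of all genes. Its median log2 change was 0.50, with 32 of the 42 above 0, against a median of -0.00396 over all genes. Pla2g4d and Pla2g4e, neighbouring genes of the cytosolic phospholipase A2 family, which releases fatty acids from membranes, both rose. Pla2g4d was at 0.715, 0.0562 and 0 CPM in the controls and 10.3, 9.46, 54.1, 26.4 and 44.1 CPM in IMQ skin (log2 change 6.76, SE 1.41, adjusted p = 0.0429). Pla2g4e was at 19.8, 37.1 and 20.6 CPM in the controls and 282, 185, 136, 77.3 and 107 CPM in IMQ skin (log2 change 2.61, SE 0.51, adjusted p = 0.036). Their orders of libraries differed: Pla2g4d was lowest in IMQ replicates 1 and 2, where Pla2g4e was highest. Pla2g4f, named after its values were seen, was at 47.6, 17.2 and 17.4 CPM in the controls and 48.2, 66.9, 63.1, 57 and 92.3 CPM in IMQ skin and was not called (adjusted p = 0.189). Alox12e, the epidermal 12-lipoxygenase of the mouse, fell from 214, 273 and 284 CPM in the controls to 4.66, 11.6, 14.3, 20.3 and 16.1 CPM in IMQ skin (log2 change -4.26, SE 0.87, adjusted p = 0.0404). With the sebaceous gland score as a covariate its log2 change was -2.23 and it was not called. Alox12b, the lipoxygenase of the barrier lipid pathway, also named after its values were seen, was at 2.69, 19.5 and 17.2 CPM in the controls and 80.5, 38.2, 83.6, 47.6 and 55.5 CPM in IMQ skin and was not called (log2 change 2.22, adjusted p = 0.148). The call of Pla2g4e was lost without any 1 library other than IMQ replicates 2 and 4 (adjusted p 0.0598 to 0.165). The call of Pla2g4d was lost without any 1 library other than IMQ replicate 2 (adjusted p 0.0517 to 0.192). The call of Alox12e was lost without any 1 of the 8 libraries (adjusted p 0.0544 to 0.156).

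Single members of the redox, xenobiotic and retinoid lists rose, and most of each list did not pass the test. Slc7a11, the cystine and glutamate exchanger that supplies glutathione synthesis, was at 1.65, 1.69 and 3.86 CPM in the controls and 263, 99.7, 84.9, 120.5 and 90.5 CPM in IMQ skin (log2 change 5.77, SE 1.09, adjusted p = 0.0328). It was the only called member of 36 in the NRF2 and glutathione list, whose median log2 change was 0.29. Lpo, lactoperoxidase, was at 0.33, 0.225 and 0.227 CPM in the controls and 5.3, 14.3, 43, 38.6 and 58 CPM in IMQ skin (log2 change 6.89, SE 1.08, adjusted p = 0.0148) and was lowest in IMQ replicates 1 and 2. Lpo is also 1 of the secretory gland markers, and the summed level given above contains it. Ces2g, a carboxylesterase, was at 10.3, 9.27 and 12.5 CPM in the controls and 72, 33, 124, 101 and 127 CPM in IMQ skin (log2 change 3.09, SE 0.47, adjusted p = 0.0136). Rbp2, a cellular retinol-binding protein, was at 11.4, 7.08 and 7.44 CPM in the controls and 128, 84.1, 98.1, 68.4 and 127 CPM in IMQ skin (log2 change 3.55, SE 0.7, adjusted p = 0.0362). These 4 genes had no overlap between the groups. Lpo was the only called gene of 17 in the oxidant list, Ces2g of 31 in the xenobiotic list and Rbp2 of 31 in the retinoid list, against 0.694% of all genes called higher, and 1 gene does not set a list apart. Akr1b8, an aldo-keto reductase chosen after its values were seen, was at 7.59, 8.87 and 10.2 CPM in the controls and 54.4, 27.4, 42.3, 21.6 and 42.7 CPM in IMQ skin (log2 change 2.09, SE 0.39, adjusted p = 0.0316). Cyp1a1, the standard target of the aryl hydrocarbon receptor, also chosen after its values were seen, was at 36.4, 80.1 and 58.4 CPM in the controls and 7.34, 22.4, 2.0, 3.34 and 1.08 CPM in IMQ skin and was not called (adjusted p = 0.186). Its log2 change was -3.01, and -0.11 with the sebaceous gland score as a covariate. The calls of Lpo and Ces2g were lost without control replicate 2 (adjusted p 0.0915 to 0.103) or control replicate 3 (0.0763 to 0.11). The call of Akr1b8 was lost without any 1 library other than IMQ replicates 2 and 4 (adjusted p 0.0563 to 0.156). The calls of Slc7a11 and Rbp2 were lost without any 1 library other than IMQ replicate 2 (adjusted p 0.0549 to 0.174).

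Enah, Fblim1, Tubb6, Tubb2b and Fhl2, whose proteins bind or build actin filaments and microtubules or act beside them, rose, while Scin, which severs actin filaments, fell. Enah, which promotes actin filament growth at the leading edge of cells, was at 72.3, 45.6 and 57.9 CPM in the controls and 175, 129, 205, 156 and 194 CPM in IMQ skin (log2 change 1.55, SE 0.21, adjusted p = 0.00862). Fblim1, migfilin, which links filamin to cell contacts, was at 10.1, 10.3 and 13.9 CPM in the controls and 25.1, 34.7, 43.6, 32.8 and 36.3 CPM in IMQ skin (log2 change 1.6, SE 0.24, adjusted p = 0.0125). Tubb6, a beta-tubulin, was at 24.2, 23.5 and 32.6 CPM in the controls and 100, 77.4, 123, 77.1 and 119 CPM in IMQ skin (log2 change 1.89, SE 0.31, adjusted p = 0.0174). In each, the lowest IMQ library lay above the highest control. The next genes were chosen after their values were seen. Tubb2b, another beta-tubulin, was at 7.42, 4.27 and 5.22 CPM in the controls and 16.6, 14, 19.1, 12.5 and 22.4 CPM in IMQ skin (log2 change 1.58, SE 0.31, adjusted p = 0.036). Fhl2, a LIM-domain protein, was at 10.8, 3.37 and 3.12 CPM in the controls and 19.8, 24.6, 45.8, 28.3 and 53.7 CPM in IMQ skin (log2 change 2.57, SE 0.54, adjusted p = 0.0429). All of these lay above the controls in every IMQ library, while skeletal muscle RNA was lower there. The calls of Enah and Fblim1 were lost without control replicate 2 (adjusted p 0.0601 to 0.0887) or control replicate 3 (0.0581 to 0.0682). The call of Tubb6 was lost without control replicate 1 (adjusted p 0.0534), control replicate 2 (adjusted p 0.116), control replicate 3 (adjusted p 0.073) or IMQ replicate 5 (0.0505). The calls of Tubb2b and Fhl2 were lost without any 1 library other than control replicate 1 and IMQ replicate 2 (adjusted p 0.0521 to 0.195).

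Mapk6, Plcd1, Pitx1 and Hbegf, which act in signalling or transcription, rose. Mapk6 encodes ERK3, an atypical MAP kinase, and was at 90.4, 82.4 and 83 CPM in the controls and 359, 206, 373, 277 and 309 CPM in IMQ skin (log2 change 1.84, SE 0.29, adjusted p = 0.0148). Plcd1, a phospholipase C that is active in mouse epidermis and hair follicles, was at 23.3, 22.7 and 18.5 CPM in the controls and 46.8, 54, 58.5, 48.9 and 64.4 CPM in IMQ skin (log2 change 1.34, SE 0.21, adjusted p = 0.0153). Pitx1, a homeobox transcription factor best known from hindlimb patterning, was the only called member of 54 in the list of epidermal transcription factors, at 1.54, 0.337 and 0.398 CPM in the controls and 4.78, 5.93, 12.1, 15.2 and 12.2 CPM in IMQ skin (log2 change 3.71, SE 0.79, adjusted p = 0.0465). Hbegf, an EGF receptor ligand chosen after its values were seen, was at 7.37, 6.18 and 6.25 CPM in the controls and 94.5, 49, 106, 35.2 and 51.1 CPM in IMQ skin (log2 change 3.35, SE 0.66, adjusted p = 0.036). The IMQ libraries of each gene lay above its controls, with Mapk6 and Plcd1 the tightest. The calls of Mapk6 and Plcd1 were lost without control replicate 2 (adjusted p 0.0888 to 0.103) or control replicate 3 (0.11). The call of Pitx1 was lost without any 1 library other than control replicate 1 and IMQ replicate 2 (adjusted p 0.0599 to 0.204). The call of Hbegf was lost without any 1 library other than IMQ replicate 2 (adjusted p 0.0521 to 0.169).

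Artn, Htr1b, Procr and Bdkrb2, known from nerve or vessel, rose. Artn, artemin, a ligand that maintains sensory neurons, was at 0.11, 0.337 and 0.568 CPM in the controls and 3.9, 1.17, 2.3, 1.7 and 2.88 CPM in IMQ skin (log2 change 2.8, SE 0.58, adjusted p = 0.0429). Htr1b, a serotonin receptor, was at 0.22, 0.281 and 0.454 CPM in the controls and 16.1, 4.93, 6.91, 1.82 and 4.5 CPM in IMQ skin (log2 change 4.4, SE 0.76, adjusted p = 0.0223), highest in IMQ replicate 1. Procr, the receptor of protein C, was at 5.28, 6.35 and 5.28 CPM in the controls and 16, 31, 33.3, 34 and 20.4 CPM in IMQ skin (log2 change 2.26, SE 0.44, adjusted p = 0.0352). It was the only called member of 30 in the list for plasminogen, coagulation and thrombosis, of which 26 had a change above 0 and the median was 0.99. The 15 endothelial cell markers, with 0 called, all had a change above 0, with a median of 1.11. They summed to 146, 537 and 686 CPM in the controls and 607, 542, 1430, 1120 and 1142 CPM in IMQ skin, which overlapped. Their part in the list's median was not tested. Bdkrb2, the bradykinin receptor B2, chosen after its values were seen, was at 1.92, 2.42 and 1.82 CPM in the controls and 11.3, 9.63, 11.4, 5.1 and 9.84 CPM in IMQ skin (log2 change 2.2, SE 0.46, adjusted p = 0.0422). These levels are low for Artn, whose controls held 18 counts in all. The call of Htr1b was lost without control replicate 1 (adjusted p 0.069), control replicate 2 (adjusted p 0.138), control replicate 3 (adjusted p 0.111) or IMQ replicate 3 (0.0541). The call of Procr was lost without any 1 library other than IMQ replicates 1 and 2 (adjusted p 0.0641 to 0.156). The calls of Artn and Bdkrb2 were lost without any 1 library other than IMQ replicate 2 (adjusted p 0.0518 to 0.186).

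Ankk1, which encodes a protein kinase with ankyrin repeats and lies beside the dopamine receptor gene Drd2 in mammals, was at 12.9, 6.87, 3.45, 3.88 and 4.08 CPM in IMQ skin and had 1 count over the 3 controls, against 528 in IMQ skin. The ratio of counts per total counts was 309.8 (exact 95% counting interval 55.4 to 12259.9; adjusted p = 0.00568). Disp2, of the dispatched family, had 1 control count and 167 IMQ counts, a ratio of 98 (17.3 to 3893; adjusted p = 0.036). Counts this low in the controls leave these ratios wide. Fxyd4, a regulator of the sodium pump, was at 0.22, 0.505 and 0.17 CPM in the controls and 37.9, 8.75, 4.91, 5.34 and 10.9 CPM in IMQ skin (log2 change 5.47, SE 1.06, adjusted p = 0.035), with IMQ replicate 1 far above the others. Tcf23, a helix-loop-helix factor, was at 0.165, 0.955 and 0.227 CPM in the controls and 18.6, 9.46, 11.9, 10.6 and 8.88 CPM in IMQ skin (log2 change 4.71, SE 0.93, adjusted p = 0.036). Atp13a4, a P-type ATPase, was at 2.58, 1.01 and 1.65 CPM in the controls and 13.8, 25.1, 15.1, 26.3 and 23.4 CPM in IMQ skin (log2 change 3.56, SE 0.6, adjusted p = 0.0223). Teddm3 was at 2.8, 1.8 and 3.07 CPM in the controls and 135, 96.8, 137, 95 and 172 CPM in IMQ skin (log2 change 5.63, SE 0.94, adjusted p = 0.0208). No control reached an IMQ library in these genes. The call of Ankk1 was lost without control replicate 2 (adjusted p 0.0501) or control replicate 3 (0.0509). The call of Atp13a4 was lost without control replicate 2 (adjusted p 0.127), control replicate 3 (adjusted p 0.128) or IMQ replicate 5 (0.0573). The call of Teddm3 was lost without control replicate 1 (adjusted p 0.057), control replicate 2 (adjusted p 0.126), control replicate 3 (adjusted p 0.116) or IMQ replicate 5 (0.0505). The call of Fxyd4 was lost without any 1 library other than IMQ replicates 1 and 2 (adjusted p 0.0518 to 0.156). The calls of Disp2 and Tcf23 were lost without any 1 library other than IMQ replicate 2 (adjusted p 0.0585 to 0.168).

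**Figure D3:**
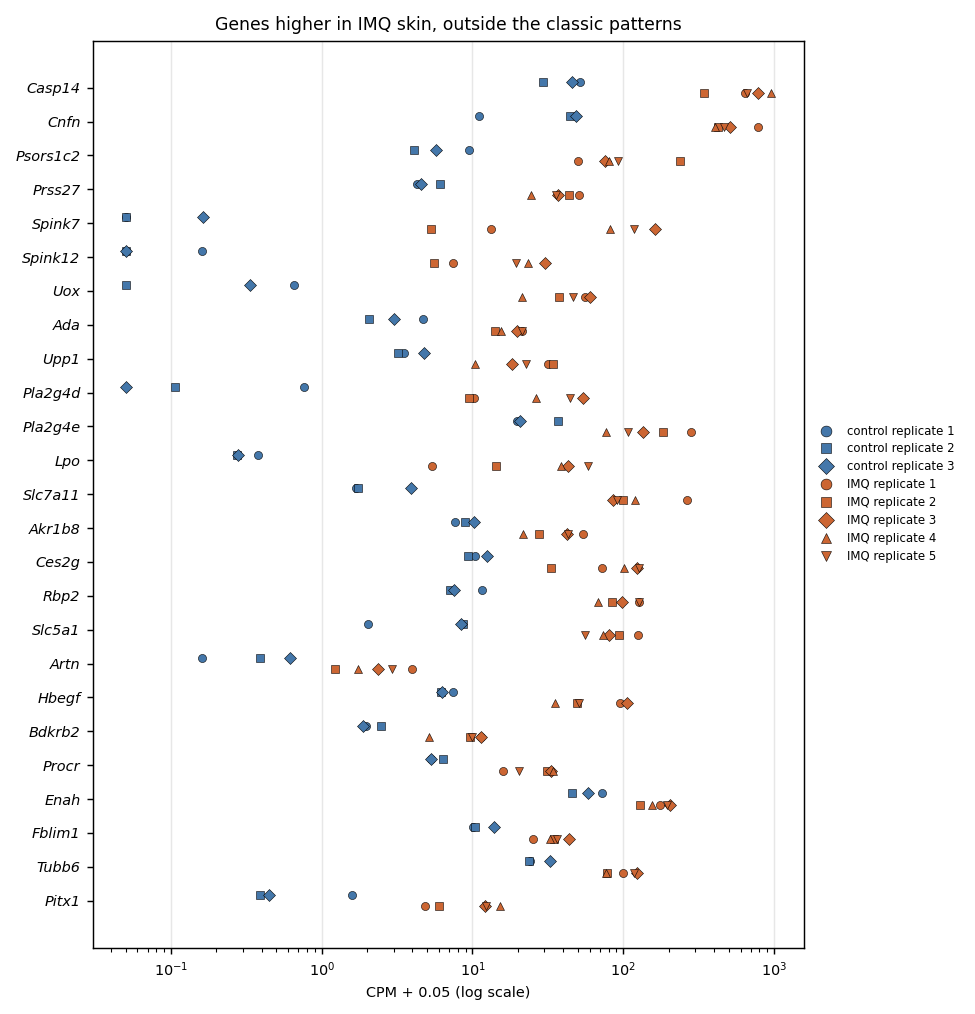
CPM in each of the 3 control and 5 IMQ libraries (log axis) for genes that rose in IMQ skin outside the classic patterns, 1 point per library. No control point reaches an IMQ point of the same gene, and the IMQ levels of Spink7 run from 5.29 to 163 CPM.

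The promoters of the genes that rose were read for 4 short motifs, because AP-1, the factor family of Fos and Jun, is known to act on epidermal stress genes. RefSeq windows (GRCm38.p6) of 250 bases before the start site were available for 12750 genes tested, for 55 of the 78 that rose and for 69 of the 88 that fell outside the classic patterns. All 4 motifs were searched on both strands. The AP-1 motif TGANTCA was in 5.29% of all windows, in 12.7% (7 of 55) of those of the genes that rose and in 5.80% (4 of 69) of those that fell. The TATA box TATAAA, counted in either orientation, was in 7.98% of all windows, 16.4% of those that rose and 14.5% of those that fell. The antioxidant response core TGACNNNGC was in 12.02%, 16.4% and 2.90%, and TTCNNNGAA, the STAT motif, in 6.06%, 5.45% and 8.70%. The motifs can overlap each other, a match is not a bound site, and no test was made.

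The windows below belong to 4 of the 7 genes that rose and hold the AP-1 motif, shown because 2 of them, Fblim1 and Upp1, lie among the changes described above, Procr was the called member of its list, and Fam25c holds both motifs. Capitals mark AP-1 matches and those TATA box matches that read TATAAA on the strand shown.
Fblim1, chr4:141606053-141606302, minus strand: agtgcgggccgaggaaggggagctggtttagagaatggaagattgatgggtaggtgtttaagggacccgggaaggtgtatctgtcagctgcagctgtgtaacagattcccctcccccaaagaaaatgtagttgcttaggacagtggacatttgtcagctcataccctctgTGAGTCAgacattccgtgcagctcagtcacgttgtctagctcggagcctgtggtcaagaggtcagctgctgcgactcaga
Procr, chr2:155750967-155751216, plus strand: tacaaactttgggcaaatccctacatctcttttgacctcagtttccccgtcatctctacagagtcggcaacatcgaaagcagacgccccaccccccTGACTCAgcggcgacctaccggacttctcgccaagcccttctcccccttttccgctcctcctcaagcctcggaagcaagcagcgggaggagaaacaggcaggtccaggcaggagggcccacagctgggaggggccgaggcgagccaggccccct
Upp1, chr11:9117758-9118007, plus strand: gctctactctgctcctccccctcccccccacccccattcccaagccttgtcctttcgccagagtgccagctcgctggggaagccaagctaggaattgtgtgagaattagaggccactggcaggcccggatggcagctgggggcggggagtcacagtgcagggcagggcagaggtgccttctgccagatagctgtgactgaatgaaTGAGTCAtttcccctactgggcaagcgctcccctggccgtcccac
Fam25c, chr14:34355394-34355643, minus strand: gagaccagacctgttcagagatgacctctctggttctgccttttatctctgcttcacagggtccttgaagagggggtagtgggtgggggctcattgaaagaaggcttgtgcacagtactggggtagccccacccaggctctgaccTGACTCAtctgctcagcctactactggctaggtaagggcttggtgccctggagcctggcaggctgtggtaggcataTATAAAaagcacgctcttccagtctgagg
The match lies 80 bases before the start in Fblim1, 154 in Procr, 45 in Upp1 and 105 in Fam25c, where a TATA box lies 29 bases before it. Fam25c, chosen after its values were seen, was at 39.7, 51.7 and 44.7 CPM in the controls and 86.3, 108, 118, 124 and 179.8 CPM in IMQ skin (log2 change 1.44, SE 0.29, adjusted p = 0.0372), without overlap. The call of Fam25c was lost without any 1 library other than IMQ replicates 1 and 2 (adjusted p 0.0671 to 0.154).

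Among the genes that fell, several are known from lymphocytes that live in the epidermis and from the keratinocyte molecules they meet. Skint genes encode keratinocyte and thymic surface proteins, of which Skint1 selects the gamma-delta T cells of mouse epidermis. Skint7 fell from 16.9, 21.5 and 20.4 CPM in the controls to 0.583, 0.411, 2.06, 2.49 and 1.26 CPM in IMQ skin (log2 change -3.84, SE 0.81, adjusted p = 0.044). It was the only called member of 29 in the list of checkpoint and costimulatory ligands. Its neighbour Skint4, chosen after its values were seen, was at 22.9, 48.1 and 59.9 CPM in the controls and 6.99, 10.2, 12.2, 18.9 and 11.4 CPM in IMQ skin (log2 change -1.87, SE 0.37, adjusted p = 0.0376). The pair lies on chromosome 4, 111830120 to 111845420 and 111929213 to 112025273 (GRCm39). Near-identical Skint members could have shared reads, so the split between them is uncertain. With the sebaceous gland score as a covariate the log2 change was -2.47 for Skint7 and -1.81 for Skint4, and neither was called. With the skeletal muscle score these were -2.00 (adjusted p 0.561) and -1.36 (0.475). The call of Skint4 was lost without any 1 library other than control replicate 1 and IMQ replicates 2 and 4 (adjusted p 0.0693 to 0.171). The call of Skint7 was lost without any 1 of the 8 libraries (adjusted p 0.0532 to 0.162).

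Il12rb2, Cd7 and Trat1, which are known from T cells and other lymphocytes, fell. None of the 14 T cell markers was called, and 3 had an unadjusted p below 0.05 in edgeR's test. Their median log2 change was -0.57, with 3 above and 11 below 0. Il12rb2, a chain of the interleukin-12 receptor, was at 4.01, 5.34 and 6.76 CPM in the controls and 0.408, 0.764, 0.363, 0.971 and 0.90 CPM in IMQ skin (log2 change -2.97, SE 0.42, adjusted p = 0.0101). Cd7, a lymphocyte surface protein, and Trat1, an adaptor of the T cell receptor, were chosen after their values were seen. Cd7 was at 3.74, 10.6 and 9.43 CPM in the controls and 0.932, 1.41, 1.39, 1.64 and 1.08 CPM in IMQ skin (log2 change -2.61, SE 0.51, adjusted p = 0.035). Trat1 was at 2.58, 13 and 14.4 CPM in the controls and 0.583, 1.7, 0.788, 0.485 and 0.42 CPM in IMQ skin (log2 change -3.64, SE 0.73, adjusted p = 0.0381). In both, control replicate 1 was the lowest control and still above every IMQ library. The 14 T cell markers summed to 33.6, 103 and 99.2 CPM in the controls and 32.8, 60.5, 62.5, 68.5 and 68.4 CPM in IMQ skin. The overlap came from control replicate 1, and control replicates 2 and 3 lay above every IMQ library. Dendritic and Langerhans cell markers, 10 genes with none called, summed to 168, 255 and 277 CPM and 111, 178, 92.7, 107 and 105 CPM, which also overlapped. A large part of each sum was Epcam, at 146, 173 and 165 CPM in the controls and 87.8, 148, 47.7, 52.5 and 53 CPM in IMQ skin. Epcam is not limited to these cells, so the sum is a weak measure of them. With the sebaceous gland score as a covariate the log2 changes were -2.99 for Il12rb2, -1.60 for Cd7 and -1.98 for Trat1 (adjusted p 0.206, 0.965 and 0.913). With sex as a covariate Il12rb2 stayed called (adjusted p 0.038), and Cd7 (0.145) and Trat1 (0.207) were not called. The part of lymphocyte numbers in these falls was not tested. The call of Il12rb2 was lost without control replicate 2 (adjusted p 0.0501) or control replicate 3 (0.0682). The calls of Cd7 and Trat1 were lost without any 1 library other than control replicate 1 and IMQ replicate 2 (adjusted p 0.0631 to 0.162).

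Sectm1b, which lies 14040 bases from Cd7 and whose human relative SECTM1 binds CD7, was chosen after its values were seen and fell with it, at 7.26, 22.2 and 20.4 CPM in the controls and 1.63, 3.82, 1.27, 0.971 and 4.26 CPM in IMQ skin (log2 change -2.79, SE 0.51, adjusted p = 0.0309). Of the nonclassical MHC class I genes, H2-M2 was at 3.9, 12.3 and 13.5 CPM in the controls and 0.641, 0.529, 0.424, 1.33 and 0.72 CPM in IMQ skin (log2 change -3.75, SE 0.6, adjusted p = 0.0164). H2-M5 was at 1.15, 6.68 and 4.6 CPM in the controls and 0, 0.0587, 0.0606, 0.243 and 0.42 CPM in IMQ skin (log2 change -4.67, SE 0.95, adjusted p = 0.04). Control replicate 1, the only control with Y-linked reads, was the lowest control for all of these. With sex as a covariate Sectm1b (adjusted p 0.134), H2-M2 (0.0829) and H2-M5 (0.173) were not called. Il20ra, a receptor chain for interleukins 19, 20 and 24, was at 18, 18.6 and 14.8 CPM in the controls and 0.466, 2.47, 0.666, 4.37 and 1.2 CPM in IMQ skin (log2 change -3.22, SE 0.66, adjusted p = 0.0414). It was the only called member of 9 in its list. Under the sebaceous gland score its log2 change was -2.15 and it was not called. Its ligand genes Il19 and Il24, chosen after their values were seen, had their highest levels in IMQ replicates 1, 3 and 5 and were not called. Il19 was at 0, 0.449 and 0.114 CPM in the controls and 18.3, 1.17, 10.5, 2.12 and 7.62 CPM in IMQ skin (adjusted p = 0.0797). Il24 was at 0.055, 0 and 0 CPM in the controls and 9.85, 0.411, 5.45, 0.91 and 4.68 CPM in IMQ skin (adjusted p = 0.133). Ifnlr1, the chain specific to the interferon lambda receptor, chosen after its values were seen, was at 16.3, 13.9 and 12.3 CPM in the controls and 5.71, 8.52, 4.91, 4.31 and 6.42 CPM in IMQ skin (log2 change -1.24, SE 0.27, adjusted p = 0.0497). The call of H2-M2 was lost without control replicate 2 (adjusted p 0.0887), control replicate 3 (adjusted p 0.0919), IMQ replicate 3 (adjusted p 0.0541) or IMQ replicate 5 (0.0584). The call of Sectm1b was lost without any 1 library other than control replicate 1 and IMQ replicates 2 and 5 (adjusted p 0.0521 to 0.155). The call of Il20ra was lost without any 1 library other than IMQ replicates 2 and 4 (adjusted p 0.0676 to 0.16). The call of H2-M5 was lost without any 1 library other than control replicate 1 (adjusted p 0.055 to 0.168). The call of Ifnlr1 was lost without any 1 library other than IMQ replicate 2 (adjusted p 0.0985 to 0.176).

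Oxtr, Prlr and Avpr1a, receptors for hormones released by the pituitary, fell. Oxtr, the oxytocin receptor, was at 26.8, 27.6 and 73 CPM in the controls and 2.45, 4.82, 2.12, 4.43 and 1.8 CPM in IMQ skin (log2 change -3.76, SE 0.73, adjusted p = 0.0353), highest in control replicate 3. Prlr, the prolactin receptor, and Avpr1a, a vasopressin receptor, were chosen after their values were seen. Prlr was at 93.7, 131 and 132 CPM in the controls and 33.8, 47.6, 18.2, 25 and 18.5 CPM in IMQ skin (log2 change -2.05, SE 0.41, adjusted p = 0.0381). Avpr1a was at 31.9, 33.6 and 41.1 CPM in the controls and 3.96, 9.28, 8.06, 7.7 and 7.56 CPM in IMQ skin (log2 change -2.28, SE 0.41, adjusted p = 0.0282). None of these receptors overlapped between the groups. Sebaceous gland and skeletal muscle RNA was lower in the same libraries. With the sebaceous score as a covariate the log2 changes were -1.87 for Oxtr, -0.87 for Prlr and -1.41 for Avpr1a (adjusted p 0.937, 0.364 and 0.762). The calls of Oxtr and Avpr1a were lost without any 1 library other than control replicate 1 and IMQ replicate 2 (adjusted p 0.0563 to 0.152). The call of Prlr was lost without any 1 library other than IMQ replicate 2 (adjusted p 0.059 to 0.162).

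Several genes best known from neurons and other excitable cells fell to near 0. Csrnp3, a nuclear protein of the cysteine and serine rich family, was at 11.8, 4.61 and 6.99 CPM in the controls and 0.117, 0.352, 0.242, 0.485 and 0.30 CPM in IMQ skin (log2 change -4.67, SE 0.58, adjusted p = 0.00568). Gabra4, a GABA-A receptor subunit, was at 4.51, 2.3 and 5.74 CPM in the controls and 0.0583, 0.352, 0.121, 0.121 and 0.12 CPM in IMQ skin (log2 change -4.69, SE 0.8, adjusted p = 0.0223). Dab1, the adaptor of reelin signalling, was at 4.07, 6.46 and 8.52 CPM in the controls and 0.35, 0, 0.242, 0.364 and 0.18 CPM in IMQ skin (log2 change -4.76, SE 0.73, adjusted p = 0.0136). IMQ levels of these 3 genes were below 1 CPM in every library. P2rx2, an ATP-gated channel, was at 1.1, 4.1 and 2.95 CPM in the controls and 0.0583, 0.117, 0.121, 0.607 and 0.12 CPM in IMQ skin (log2 change -3.69, SE 0.69, adjusted p = 0.0317). Chat, the enzyme that makes acetylcholine, had 8, 30 and 30 counts in the controls and none in IMQ skin, which is at least 38.6-fold lower with the group's floor set at 3 counts (adjusted p = 0.0422). C1ql2, a secreted synaptic protein, had 94 control counts and 4 in IMQ skin (log2 change -5.01, SE 0.91, adjusted p = 0.0407). Kcnj2, an inward rectifier potassium channel, fell by less, from 53.4, 71.1 and 66.8 CPM to 30.2, 30.8, 35.4, 33.2 and 27.1 CPM (log2 change -1.02, SE 0.16, adjusted p = 0.0136). The call of Csrnp3 held whichever library was left out (adjusted p 0.0102 to 0.045) and was lost with the skeletal muscle score as a covariate (0.23). The call of Kcnj2 was lost without control replicate 2 (adjusted p 0.102) or control replicate 3 (0.0919). The call of Dab1 was lost without control replicate 2 (adjusted p 0.0616), control replicate 3 (adjusted p 0.073) or IMQ replicate 5 (0.0505). The call of P2rx2 was lost without any 1 library other than control replicate 1 and IMQ replicates 2 and 4 (adjusted p 0.0615 to 0.156). The calls of Gabra4 and C1ql2 were lost without any 1 library other than control replicate 1 and IMQ replicate 2 (adjusted p 0.0542 to 0.171). The call of Chat was lost without any 1 library other than IMQ replicate 2 (adjusted p 0.0534 to 0.162).

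Schwann cell markers, which report on nerve, summed to 420.4, 703 and 702 CPM in the controls and 235, 279.7, 442, 648 and 395 CPM in IMQ skin, which overlapped. None of the 11 was called by edgeR, 3 had an unadjusted p below 0.05, and DESeq2 called 2 lower and 0 higher. Their median log2 change was -0.59, with 4 above and 7 below 0, and 3 were lower and 0 higher without overlap, against 7.40% and 6.79% of all genes. The 44 tested members of the neurotrophic, itch and sensory list held 1 called higher, Artn, and 1 called lower, Chat, against 0.694% and 0.535% of all genes, with a median of 0.39. Flrt1, a cell surface protein with leucine-rich repeats, was at 8.74, 11 and 15.4 CPM in the controls and 1.52, 3.05, 1.39, 1.94 and 1.02 CPM in IMQ skin (log2 change -2.71, SE 0.39, adjusted p = 0.0101). Ppp2r2c, a regulatory subunit of protein phosphatase 2A known from brain, was at 42.1, 57.9 and 55.7 CPM in the controls and 8.86, 15.6, 4.97, 6.43 and 4.14 CPM in IMQ skin (log2 change -2.7, SE 0.41, adjusted p = 0.0136). Zfp827, a zinc finger protein, was at 27.9, 29.4 and 27.8 CPM in the controls and 4.14, 9.16, 7.27, 6.19 and 6.72 CPM in IMQ skin (log2 change -2.08, SE 0.33, adjusted p = 0.0148). The groups did not overlap in these genes, and the controls of Zfp827 were within a few CPM of each other. The calls of Flrt1 and Ppp2r2c were lost without control replicate 2 (adjusted p 0.0501 to 0.0762) or control replicate 3 (0.0682 to 0.0722). The call of Zfp827 was lost without control replicate 2 (adjusted p 0.0861), control replicate 3 (adjusted p 0.073) or IMQ replicate 5 (0.0505).

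Aadacl2fm1, Ldah, Hsd17b13, Cers5 and Bbox1, enzymes or relatives of enzymes of lipids and small molecules, fell, and the sebaceous gland sum was lower in the same libraries. Aadacl2fm1, of the arylacetamide deacetylase-like family, fell from 117, 151 and 127 CPM to 32.3, 33.9, 18.7, 31.6 and 24.8 CPM (log2 change -2.22, SE 0.25, adjusted p = 0.00568). Ldah, a hydrolase of lipid droplets, was at 149, 336 and 241 CPM in the controls and 66.1, 70.2, 39.9, 46.8 and 43.8 CPM in IMQ skin (log2 change -2.18, SE 0.36, adjusted p = 0.0186). Hsd17b13, another lipid droplet enzyme, was at 1.04, 7.58 and 5.68 CPM in the controls and 0.233, 0.646, 0.0606, 0 and 0.060 CPM in IMQ skin (log2 change -4.52, SE 0.89, adjusted p = 0.0362). No control overlapped an IMQ library in these genes. Cers5, a ceramide synthase chosen after its values were seen, was at 70.6, 385 and 282 CPM in the controls and 57.5, 77.3, 47.6, 50.8 and 48.7 CPM in IMQ skin (log2 change -2.13, SE 0.4, adjusted p = 0.0317), and its control replicate 1 lay below IMQ replicate 2. Bbox1, the last enzyme of carnitine synthesis, chosen in the same way, was at 35.2, 112 and 106 CPM in the controls and 13.6, 17.6, 12.4, 19 and 13 CPM in IMQ skin (log2 change -2.48, SE 0.47, adjusted p = 0.0317). With the sebaceous score as a covariate the log2 change of Aadacl2fm1 was -1.91 (adjusted p = 0.0741), of Ldah -1.22 (0.333), and of Cers5 -1.49 (0.659). For Hsd17b13 it was -3.06 (0.8) and for Bbox1 -1.38 (0.965). With sex as a covariate Aadacl2fm1 stayed called (adjusted p 0.0138). Ldah (0.0677), Hsd17b13 (0.168), Cers5 (0.219) and Bbox1 (0.153) were not called in that fit. The call of Aadacl2fm1 held whichever library was left out (adjusted p 0.00494 to 0.0423). The call of Ldah was lost without any 1 library other than control replicate 1 and IMQ replicates 1 and 2 (adjusted p 0.0521 to 0.113). The calls of Hsd17b13, Cers5 and Bbox1 were lost without any 1 library other than control replicate 1 and IMQ replicate 2 (adjusted p 0.0585 to 0.162).

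Transporters and channels changed gene by gene. In the list of amino acid and glucose transporters, 1 of 28 members rose and 2 fell, against 0.694% and 0.535% of all genes. Slc5a1, the sodium-coupled glucose transporter SGLT1, rose from 1.98, 8.54 and 8.29 CPM to 125, 93.9, 80.8, 73.5 and 55.3 CPM (log2 change 3.77, SE 0.78, adjusted p = 0.0422). Slc2a12, the facilitative glucose transporter GLUT12, fell from 32.4, 37.6 and 35 CPM to 3.61, 9.87, 5.21, 5.64 and 5.16 CPM (log2 change -2.57, SE 0.29, adjusted p = 0.00568). Slc7a6, a light chain of amino acid exchangers, fell from 65, 76.4 and 57.4 CPM to 25.3, 27.5, 29, 24.3 and 28.2 CPM (log2 change -1.3, SE 0.25, adjusted p = 0.0348). The controls of both falling genes lay close together and above every IMQ library. Clca2, a chloride channel regulator, was the only called member of 36 in the ion and water list, at 49.7, 78.7 and 73.9 CPM in the controls and 29.8, 39.3, 29, 31.1 and 28.1 CPM in IMQ skin (log2 change -1.1, SE 0.23, adjusted p = 0.0447). Its relative Clca3a2, chosen after its values were seen, was at 684, 1198 and 1199.8 CPM in the controls and 115, 267, 41.4, 99.8 and 66.8 CPM in IMQ skin (log2 change -3.12, SE 0.63, adjusted p = 0.0398). With the sebaceous gland score as a covariate the log2 change of Clca3a2 was -1.37 (adjusted p = 0.502). Aqp3, the glycerol and water channel of epidermis, chosen in the same way, was at 63.8, 85.9 and 99.4 CPM in the controls and 273, 242, 649.8, 264 and 480.2 CPM in IMQ skin and was not called (adjusted p = 0.133). The call of Slc2a12 held whichever library was left out (adjusted p 0.00162 to 0.0423). The call of Clca2 was lost without any 1 library other than control replicate 1 and IMQ replicate 2 (adjusted p 0.0925 to 0.206). The calls of Slc5a1, Slc7a6 and Clca3a2 were lost without any 1 library other than IMQ replicate 2 (adjusted p 0.0564 to 0.162).

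Scin, Asgr1, Hamp2, Padi6 and Fst, of different families, fell too. Scin, scinderin, which severs actin filaments, was at 70.7, 96.2 and 84.6 CPM in the controls and 14, 24.3, 12.1, 11.7 and 12.7 CPM in IMQ skin (log2 change -2.48, SE 0.3, adjusted p = 0.00568). Asgr1, a subunit of the asialoglycoprotein receptor of liver, was at 5.72, 5.28 and 5.17 CPM in the controls and 0.233, 0.294, 0.0606, 0 and 0.18 CPM in IMQ skin (log2 change -5.06, SE 0.73, adjusted p = 0.0105). Hamp2, of the hepcidin family, had 82 counts in the controls and none in IMQ skin, at least 46.6-fold lower with the same floor of 3 counts (adjusted p = 0.0189). It was the called member of 30 in the zinc and iron list. Padi6, known as an oocyte member of the peptidylarginine deiminases, had 71 control counts and 2 IMQ counts, a ratio of control to IMQ of 60.5 (exact 95% counting interval 16.1 to 509; adjusted p = 0.0186). Fst, follistatin, which binds activins, was at 92.3, 82.6 and 75.9 CPM in the controls and 28.3, 24.3, 43.9, 34.4 and 27.1 CPM in IMQ skin (log2 change -1.4, SE 0.28, adjusted p = 0.0375) and was the only called member of 42 in the TGF-beta and BMP list. All of these were lower in every IMQ library than in every control. The call of Scin held whichever library was left out (adjusted p 0.00328 to 0.045). The calls of Asgr1 and Hamp2 were lost without control replicate 2 (adjusted p 0.0501 to 0.0912) or control replicate 3 (0.0592 to 0.102). The call of Padi6 was lost without control replicate 2 (adjusted p 0.0582), control replicate 3 (adjusted p 0.0908), IMQ replicate 3 (adjusted p 0.0553) or IMQ replicate 5 (0.0618). The call of Fst was lost without any 1 library other than IMQ replicate 2 (adjusted p 0.0541 to 0.156).

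**Figure D4:**
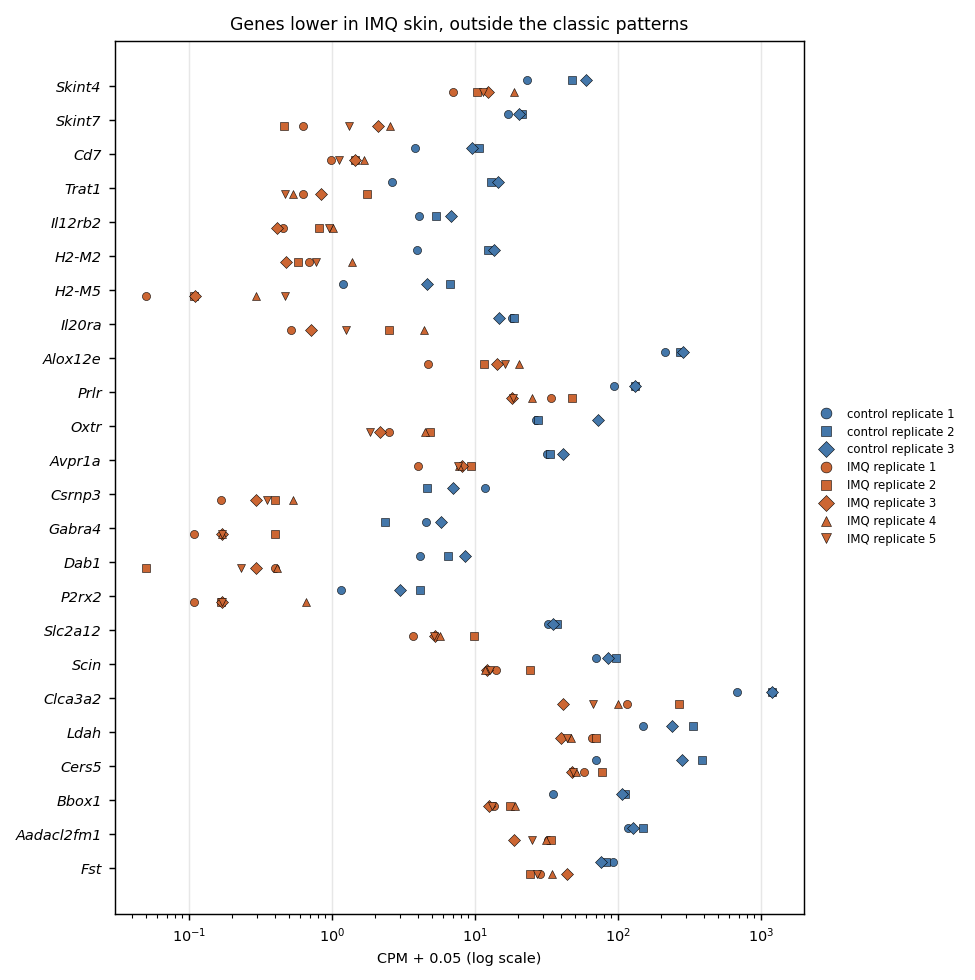
CPM in each of the 3 control and 5 IMQ libraries (log axis) for genes that fell in IMQ skin outside the classic patterns, 1 point per library. The IMQ points of each gene lie below its controls, except Cers5, whose control replicate 1 lies below IMQ replicate 2, and control replicate 1 is the lowest control for several of the lymphocyte-linked genes.

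Of the 28 pathway lists chosen for their bearing on skin, 13 held no called gene. The WNT list had 0 of 47 called in edgeR's quasi-likelihood test, with 13 at an unadjusted p below 0.05, 4 called by DESeq2 (1 higher, 3 lower) and a median log2 change of -0.24. Its smallest p-values belonged to Axin2, a target gene of the pathway, at 60.4, 45.6 and 36.6 CPM in the controls and 19.6, 31.3, 14.2, 12.6 and 22.6 CPM in IMQ skin (adjusted p = 0.0837), and Rspo1, a ligand, at 26.3, 17.4 and 13.1 CPM in the controls and 6.18, 9.63, 4.6, 7.52 and 4.56 CPM in IMQ skin (adjusted p = 0.0841). The groups did not overlap in either gene. Hedgehog genes (0 of 13 by edgeR, 2 unadjusted, 0 by DESeq2, median -0.37) included Hhip, a ligand-binding antagonist, at 88.7, 3.43 and 3.58 CPM in the controls and 2.56, 5.35, 6.0, 7.04 and 5.52 CPM in IMQ skin. Its mean difference rests on control replicate 1: the log2 change was -2.59 with it and 0.58 without it. The Notch list had 0 of 19 called by edgeR, 7 unadjusted, 1 by DESeq2 (lower) and a median of 0.05.

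Among growth factors, edgeR called 0 of 38, with 6 unadjusted and 2 by DESeq2 (both lower), and the median was 0.17. Fgf9 had the smallest p, at 10.6, 8.54 and 9.94 CPM in the controls and 1.22, 2.06, 0.848, 3.03 and 1.68 CPM in IMQ skin (log2 change -2.45, adjusted p = 0.0539), without overlap. Hyaluronan, proteoglycan and basement membrane genes had 0 of 55 called by edgeR, 14 unadjusted and 6 by DESeq2 (5 of them higher), and a median of 0.65, with 44 above 0. Tenascin C, Tnc, was at 8.58, 26.6 and 12.7 CPM in the controls and 240.5, 144, 312, 51.7 and 477 CPM in IMQ skin (adjusted p = 0.0701), and Cemip, which depolymerises hyaluronan, at 3.02, 1.07 and 1.87 CPM in the controls and 11.8, 12.8, 38.3, 18.4 and 43.8 CPM in IMQ skin (adjusted p = 0.107). The fibroblast sum of control replicate 1, given above, was the lowest of the 8 libraries, and its part in this median was not tested. Junction and adhesion genes had 0 of 50 called by edgeR, 14 unadjusted, 4 by DESeq2 (1 higher, 3 lower) and a median of 0.27, with Cldn8, a tight junction claudin, at 20.5, 9.94 and 15.7 CPM in the controls and 1.05, 5.05, 1.09, 1.46 and 2.82 CPM in IMQ skin (adjusted p = 0.0771). Among mucins and glycosyltransferases, edgeR called 0 of 33, with 8 unadjusted and 5 by DESeq2 (4 of them higher), and Galnt6, which starts O-glycan chains, was at 11.7, 14 and 14.4 CPM in the controls and 57.8, 56.6, 43.5, 41.1 and 60.4 CPM in IMQ skin (adjusted p = 0.0567).

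The other lists with none called by edgeR are given with their counts at an unadjusted p below 0.05 and by DESeq2. They were cholesterol genes (0 of 29 tested, 10 unadjusted, 3 by DESeq2, median -0.29) and the genes of vitamin D, glucocorticoid and thyroid hormone (0 of 24, 5 unadjusted, 0 by DESeq2, median -0.42). The unfolded protein and heat shock response (0 of 30, 3 unadjusted, 0 by DESeq2) had a median of 0.01, and axon guidance genes (0 of 44, 5 unadjusted, 2 by DESeq2) one of 0.18. Galectins, annexins and other S100 genes (0 of 30, 5 unadjusted, 1 by DESeq2) had a median of 0.08, and proteasome and RNA processing genes (0 of 35, 3 unadjusted, 0 by DESeq2) one of -0.04. Over all genes, 2830 of 18147 had an unadjusted p below 0.05 and DESeq2 called 667 higher and 459 lower, so a list with none called was not shown to be unchanged.

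Called genes lay next to each other in places. Of the 166 genes outside the classic patterns, 18 lay within 100 kb of another, in 9 pairs, and the members of 8 pairs moved the same way. The matching share over all genes tested was not computed, so this count cannot be told apart from ordinary gene density. These include Pla2g4e and Pla2g4d on chromosome 2, 20260 bases apart, Cd7 and Sectm1b on chromosome 11, Skint7 and Skint4 on chromosome 4, 83793 bases apart, and Cgref1 and Tcf23 on chromosome 5, 23071 bases apart (GRCm39). Whether counting used strand is not given in the sources used here, so reads of overlapping neighbours cannot be told apart.

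Some genes passed the threshold under most of the 22 other settings tried and others under few. Prss27 passed under 20, Aadacl2fm1, Scin and Ankk1 under 18, Slc2a12 under 17, and Casp14 and Csrnp3 under 16. With the muscle score as a covariate Prss27 had a log2 change of 2.33 (adjusted p = 0.025), and with the secretory gland score 3.13 (0.0431). For Scin these were -2.31 (0.13) and -2.05 (0.0846), for Aadacl2fm1 -2.6 (0.025) and -1.97 (0.0867), and for Casp14 3.73 (0.0705) and 3.39 (0.0677). Without the scores the log2 changes were 2.95, -2.48, -2.22 and 4.0. With the muscle score Csrnp3, Slc2a12 and Ankk1 had log2 changes of -3.44 (adjusted p = 0.23), -2.51 (0.0904) and 6.53 (0.025). With the secretory gland score these were -4.72 (0.0856), -2.13 (0.056) and 8.46 (0.0431), and without the scores -4.67, -2.57 and 7.91.

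**Figure D5:**
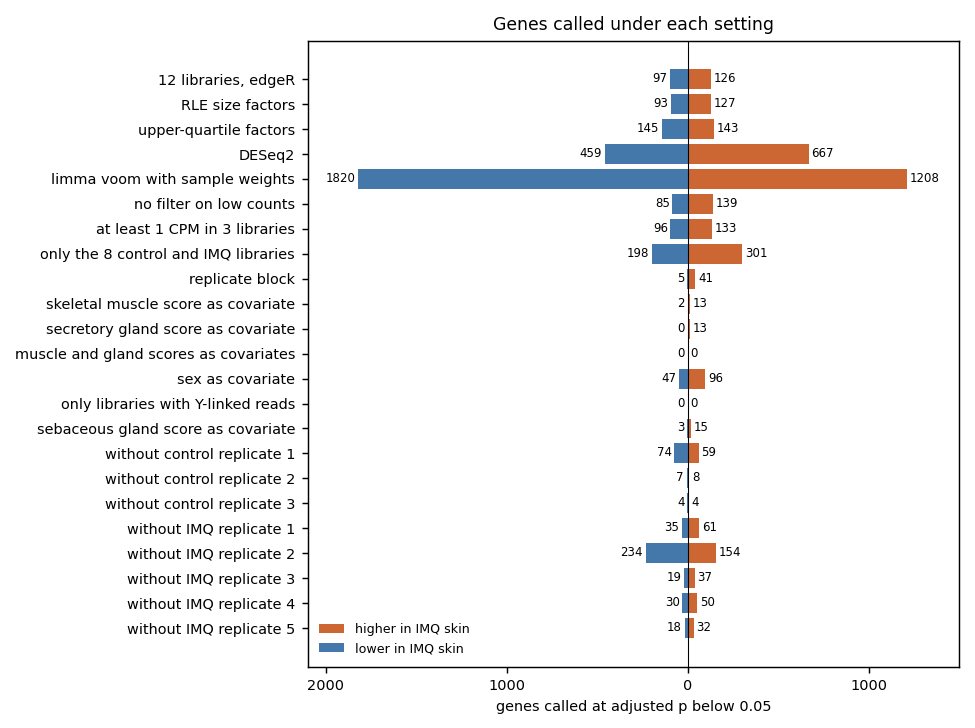
Number of genes called at an adjusted p below 0.05 (horizontal axis, higher in IMQ skin to the right and lower to the left) in the 12-library edgeR fit and under each other setting, 1 bar pair per setting. The counts run from 0 with the muscle and gland scores together to 1208 higher and 1820 lower with limma voom and sample weights.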

How the data were processed

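The series holds 12 RNA-seq libraries labelled as mouse skin. Per the labels' protocols, RNA was captured with oligo(dT) beads, fragmented, primed with random hexamers and size selected, so degraded RNA can be captured unevenly and copies of 1 molecule cannot be told apart. The authors deposited raw whole-number read counts for each gene, and the genome build was GRCm39, per the submitters' processing notes. Not given in the sources used here are the aligner, the counting program and whether strand was used. Titles set the groups, and every per-sample column could be mapped.

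The tests ran in edgeR 4.0.16 (R 4.3.3). Of 33539 genes, 18147 passed filterByExpr, and TMM factors scaled the library sizes. The 12 libraries entered a single quasi-likelihood model (glmQLFit, glmQLFTest, 2-sided) with 1 mean for each group. Benjamini-Hochberg adjustment covered every gene tested, with 0.05 as the threshold. The spread between replicates, as edgeR's common biological coefficient of variation, came to 0.463. Log2 CPM for scores had a prior count of 2, and a score is the mean log2 CPM of a marker list. The SE was computed from the F statistic. For a gene with no count in a group, the fold uses a group total of 3 counts as floor. With 1 to 3 counts, a ratio with an exact 95% interval is given. Both cover counting error only.

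The comparison, the gene lists and the tests were chosen with earlier results of these data known. Genes named outside the classic symbol patterns were the 15 called genes per direction with the largest change (no overlap, a mean of 1 CPM or more on the higher side, gene models left out), the 15 per direction with the smallest p, and up to 4 called members of each pathway list. Lists with no called gene gave their 2 members of lowest p. Others are said to have been chosen after their values were seen, and not every gene the rule picks is reported here. The scripts were tested on simulated counts.

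Other settings were DESeq2 1.42.0, limma 3.58.1 voom with sample weights, RLE and upper-quartile factors, other filters, 8 libraries only, a replicate block, muscle, secretory gland and sex covariates, libraries with Y-linked reads only, and leaving out each library. A sebaceous gland covariate was added after the data were seen. Promoter windows came from RefSeq (GRCm38.p6) and gene coordinates from the count table (GRCm39). Coordinates of the 2 builds were not mixed.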

Additional observations from a re-analysis of the deposited data

Results flagged for a closer look

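Within the 5 IMQ libraries, 1 library stood far from the other 4 in 17 of 137 groups of values looked at. The rule sets about 1 in 20 groups apart by chance only where values are independent and normally spread. Here all groups come from the same 5 libraries and some rest on few reads, so 17 cannot be set against that rate. No test of a cause was made for any of these.

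IMQ replicate 1 was high for Cnfn (784 CPM), Fxyd4 (37.9 CPM), Sc5d, an enzyme of cholesterol synthesis that was not called (93.1 CPM), and Slc7a11 (263 CPM). Its summed neutrophil markers were also the highest, at 12670 CPM, and its summed T cell markers the lowest, at 32.8 CPM.

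IMQ replicate 2 was high for Clca2 (39.3 CPM), Gabra4 (0.352 CPM), Padi6 (0.117 CPM, the only IMQ library with a read), Psors1c2 (237.7 CPM), Scin (24.3 CPM) and Trat1 (1.70 CPM). The same library was the highest in summed sebaceous gland markers (6052 CPM), hair shaft and inner root sheath markers (18022 CPM) and dendritic and Langerhans cell markers (178 CPM). Of the last sum, Epcam alone was 148 CPM. Clca2, Gabra4, Padi6, Scin and Trat1 fell in IMQ skin and Psors1c2 rose, so for the first 5 genes this library was nearest the controls, and for Psors1c2 farthest from them.

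IMQ replicate 4 was low for Bdkrb2 (5.10 CPM) and high for P2rx2 (0.607 CPM).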

How the results depend on the processing

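The main fit called 126 genes higher and 97 lower. DESeq2 called 667 and 459, limma voom with sample weights 1208 and 1820, and the fit of only the 8 libraries 301 and 198. With the skeletal muscle score 13 and 2 genes were called, with the secretory gland score 13 and 0 (1589 at an unadjusted p below 0.05), and with both scores 0 and 0 (533 unadjusted). With the sebaceous gland score, chosen after the data were seen, there were 15 and 3, and with sex 96 and 47. In the libraries with Y-linked reads, with 1 control assumed to vary like the other groups, edgeR called 0 and 0 (4119 unadjusted). Leaving out 1 library gave 4 to 154 higher and 4 to 234 lower. RLE and upper-quartile factors, no filter and the filter of 1 CPM gave 127 and 93, 143 and 145, 139 and 85, and 133 and 96.

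With the replicate number as a block, 41 genes were called higher and 5 lower. The correlations of same-numbered libraries were 0.0470, -0.114 and 0.263, so the numbers were not taken to pair the libraries.

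All 85 called genes tracked by name kept their direction in all 1867 values under other settings, and 920 of these were past the threshold. These genes were called for their change in the same libraries, so a kept direction is no separate support. Of the genes not called, Hhip (-2.59) reversed with limma voom (0.45) and without control replicate 1, the library with its high level, and ranged from -3.13 to 0.58 over the leave-one-out fits. Asns (0.88) reversed with both scores (-0.0248), and the cause was not tested. With 3 controls, changes of genes with few counts or wide scatter were often not detectable, and a gene that was not called was not shown to be unchanged. Sex, muscle and gland content are partly aligned with treatment and cannot be told apart from it.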
